A study of Mus musculus with 14 samples.

Results

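The Hedgehog pathway genes described here are Shh, Ptch1, Boc, Hhip, Smo, Sufu, Gli1, Gli2 and Gli3, 9 of the 22367 protein-coding genes of the GENCODE vM1 annotation on mm9. For each gene, every H3K27ac peak of the embryonic day (E) 14 mouse retina that overlapped the gene body or the 50 kb on either side was collected. These windows held 25 of the 13463 peaks. H3K27ac is acetylation of histone H3 at lysine 27, a mark of active promoters and enhancers. The study profiled early and late retinal progenitor cells, with and without the transcription factor LHX2, by RNA-Seq, ATAC-Seq and ChIP-Seq, and of these data the E14 H3K27ac peak list was used. The chromatin came from mice of the CD1 strain at E14, with no transgene or deletion named for this sample. The labels call the cells retinal progenitor cells, whereas the methods describe whole dissected retinas, so other retinal cells may contribute. The list is 1 call on 2 ChIP libraries pooled by the authors, with 1 isotype control, so that no replicate error can be given and no difference between conditions was tested.

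In the Hedgehog pathway, the secreted ligand Sonic hedgehog binds the receptor Patched 1, which otherwise keeps the membrane protein Smoothened inactive. Active Smoothened acts through the primary cilium to release the GLI transcription factors from Suppressor of fused, and GLI1 and GLI2 then act mainly as activators while GLI3 acts mainly as a repressor. Ptch1, Hhip and Gli1 are well-known transcriptional targets of the pathway, and the proteins of the first 2 hold it back. In the developing retina, ganglion cells secrete Sonic hedgehog, and the neighbouring progenitors respond to it.

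An H3K27ac peak lay at an own transcription start site (TSS), that is within 1000 bp of the TSS of an annotated transcript of the gene, in 8 of the 9 genes. The exception was Shh, which had no peak in its window. Over all protein-coding genes, 49.8% had a peak at an own TSS. The height of these peaks varied widely between the pathway genes, from Smo, whose mean pileup ranked 27 of 13463, to Hhip, which ranked 12524. The pileup is the mean number of ChIP fragments over each base of a peak, with the ChIP library scaled to the smaller control library. Gli2 and Ptch1 each had 2 peaks at own TSSs, where 2.15% of genes had 2 or more (with a q-value of at most 0.01 Gli2 kept 1, and with the first TSS alone each had 1), and were the genes with a peak inside the gene away from any own TSS.

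Sequences from 4 of these genes are given first, from the mm9 genome, 5′ to 3′ on the strand of the gene. The pair below shows the 200 bases before the first TSS of Smo, which lie inside a peak of very high pileup, and of Shh, where no peak was called. Capitals mark the letters GGGCGG (a GC box) and CCAAT, searched on both strands, with no overlap between matches in either sequence. Of the 200-base stretches before the first TSS of all protein-coding genes, 38% held a GC box and 30.6% held CCAAT.
Smo, chr6:29685494-29685693, + strand: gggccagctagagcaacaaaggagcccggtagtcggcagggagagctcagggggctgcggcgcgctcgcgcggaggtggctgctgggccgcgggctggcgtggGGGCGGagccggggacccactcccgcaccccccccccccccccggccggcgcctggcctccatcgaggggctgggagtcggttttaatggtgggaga
Shh, chr5:28793642-28793841, - strand: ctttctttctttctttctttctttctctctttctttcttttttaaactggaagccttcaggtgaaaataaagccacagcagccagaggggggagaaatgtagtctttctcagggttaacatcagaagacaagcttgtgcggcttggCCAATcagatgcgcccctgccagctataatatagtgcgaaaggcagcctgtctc
The Smo stretch has a GC content of 75.5%, 19 CpG dinucleotides and 1 GC box. The Shh stretch has a GC content of 45%, 3 CpG dinucleotides, no GC box and 1 CCAAT. This contrast did not hold for every gene. The same stretch of Hhip, whose peak had the lowest pileup, has a GC content of 73%, 24 CpG dinucleotides and 2 GC boxes, and that of Boc, with a pileup of 15.29, has 54%, 6 CpG dinucleotides and no GC box.

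A stretch from a peak in intron 1 of Gli2 is shown because it holds a dense run of GC boxes away from any annotated TSS. It was chosen as the 200 bases of that peak with the most GC boxes. Capitals mark 5 matches of GGGCGG on either strand, of which 2 neighbours share 1 base. The stretch holds 34 CpG dinucleotides and has a GC content of 78.5%.
Gli2, chr1:120944626-120944825, - strand: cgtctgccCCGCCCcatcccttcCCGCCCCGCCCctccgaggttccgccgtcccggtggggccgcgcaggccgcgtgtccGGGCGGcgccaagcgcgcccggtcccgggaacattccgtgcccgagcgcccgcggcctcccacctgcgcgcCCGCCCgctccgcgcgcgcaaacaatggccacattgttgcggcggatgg

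The last pair shows exact matches to the consensus letters of GLI factors beside the Ptch1 peaks, with 30 bases on either side. Capitals mark the GLI consensus TGGGTGGTC or its reverse complement. The middle of the upper word lies 303 bp upstream of the first TSS, and that of the lower word 6.73 kb into the gene.
Ptch1 upstream, chr13:63674743-63674811, - strand: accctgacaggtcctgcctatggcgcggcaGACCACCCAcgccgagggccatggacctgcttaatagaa
Ptch1 internal, chr13:63667713-63667781, - strand: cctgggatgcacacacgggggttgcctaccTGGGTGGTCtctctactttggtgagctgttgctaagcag

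Before the genes are taken in turn, the quality of the list is given. After removal of duplicates the authors' call used 113543038 ChIP tags and 9210563 control tags, so the control was 12.3 times shallower. The redundant rate was 29% for the ChIP tags and 67% for the control tags. Markers of the tissue were checked in the same way as the pathway genes. An own-TSS peak was present at 12 of 12 retinal progenitor markers and 6 of 8 markers of ganglion cells and other early neurons. Pigment epithelium had 0 of 6, lens 0 of 4, and endothelium, blood and connective tissue 0 of 6. The liver and muscle list had 1 of 4, the muscle gene Actn3. Peaks were called high-confidence where the fold enrichment was 4 or more and the q-value 0.001 or less, and 64.1% of the list met both limits. High-confidence own-TSS peaks were present at 11 of 12 progenitor markers and 3 of 8 markers of ganglion cells and other early neurons. The median pileups of their own-TSS peaks were 15 and 12.7. Intervals given with a pileup are exact 95% Poisson intervals on the fragments behind it, and cover counting error only.

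**Figure D1:**
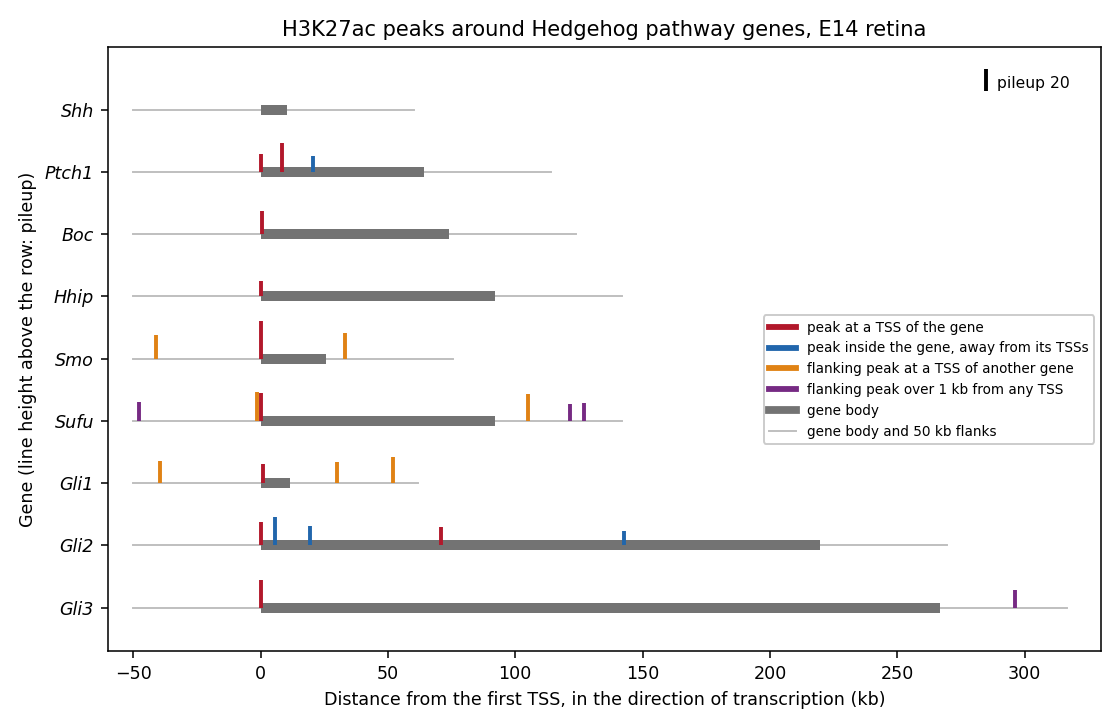
H3K27ac peaks in the windows of the 9 genes, by distance in kb from the first TSS in the direction of transcription. Thick bars are gene bodies, thin lines are the windows with 50 kb flanks, each coloured line is 1 peak whose height is its mean pileup, and colours give the class of the peak. Shh had no peak, Gli2 had 3 peaks inside the gene away from its TSSs, and the 267 kb body of Gli3 had none beyond its TSS.

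The question addressed for the ligand was whether its locus carried H3K27ac at this stage. Shh (chr5:28783355-28793641, - strand, 10.3 kb) encodes the Sonic hedgehog ligand and had no peak at its single annotated TSS, in its body or within 50 kb, where 72.1% of genes had at least 1. The nearest peak lay 149 kb downstream of the TSS, at the TSS of Rbm33, with a pileup of 26.35 and a fold enrichment of 7.43. The next lay 394 kb downstream at Insig1 and Gm16719. Within 500 kb of the Shh TSS there were thus 2 peaks, a number as low or lower at 16.3% of genes. Over 1 Mb on either side, a range chosen after the values were seen, there were 6 peaks, and each lay at a TSS of another gene: Rbm33, Insig1 and Paxip1 downstream and Rnf32, Lmbr1 and Nom1 upstream. Their pileups ranged from 15.88 to 26.35. Lmbr1 is known for an intron that carries the limb enhancer of Shh, and the Lmbr1 peak of 908 bp covered its TSS.

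The absence of a peak at Shh says that no region there passed the caller, whose lowest listed mean pileup was 6. In tissue of mixed cell types, fewer cells that carry the mark and less of it per cell cannot be told apart. The 1 kb around the Shh TSS had a GC content of 53.1% and a CpG ratio (observed over that given by its base composition) of 0.553. The medians were 59.8% and 0.754 at the first TSSs of genes with an own-TSS peak, and 48.3% and 0.24 at those without, so that Shh lay between them.

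Ptch1 (chr13:63610261-63674474, - strand, 64.2 kb) encodes the Sonic hedgehog receptor and had 3 peaks, all inside or at the edge of the gene. The tallest and longest, at chr13:63664342-63667496, spanned 3155 bp with a pileup of 20.33 (interval 19.5 to 21.1), a fold enrichment of 5.77 and a q-value of 1.76e-09. It covered the TSSs of 2 annotated transcripts, which lie 7.65 and 8.84 kb into the gene. It ranked 1973 by pileup, 299 by length and 175 by the product of the 2 among the 13463 peaks. The most upstream TSS carried a smaller peak at chr13:63674087-63674661, of 575 bp, with a pileup of 10.54 (interval 9.25 to 12) and a fold enrichment of 4.07. The intervals of the 2 pileups did not overlap, and the internal TSSs carried the higher signal. The remaining annotated TSS, 58.8 kb into the gene, had no peak within 38 kb.

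The third Ptch1 peak, at chr13:63653635-63654206, lay in intron 2 of each of the 3 annotated transcripts that span it, 11.4 kb from the nearest own TSS. It measured 572 bp with a pileup of 8.52 (interval 7.36 to 9.81) and a fold enrichment of 3.67. Its pileup ranked 2002 among the 2855 distal peaks of the list, those over 1 kb from every annotated TSS. It did not meet the high-confidence limits, which both Ptch1 peaks at TSSs met. No peak lay in the flanks of Ptch1, where 57.3% of genes had one, and the first beyond them lay 76.8 kb from the gene, at the TSS of Fancc.

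Boc (chr16:44485158-44559010, - strand, 73.9 kb) encodes a co-receptor that binds Sonic hedgehog and aids its signal. Its single peak, at chr16:44557769-44559154, covered the TSSs of both annotated transcripts, and the non-coding gene AC124180.1 also has a TSS there. The peak measured 1386 bp with a pileup of 15.29 (interval 14.3 to 16.4), close to the median of 15.06 over all peaks, and ranked 6483. Its fold enrichment of 7.84 was far higher in the list, at rank 265. The background implied by these values was 1.08 fragments per base, near the lowest in the list (1.07), against a median of 2.36 over all peaks. For Boc the rank therefore turned on the measure, and the part of the coarse control in its fold enrichment was not tested. The peak lay mostly downstream of the first TSS, with 1241 bp in the gene and 144 bp before it.

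Hhip (chr8:82490014-82581905, - strand, 91.9 kb) encodes a membrane protein that binds Hedgehog ligands and holds back the signal. Its TSS peak, at chr8:82581307-82582344, had the lowest pileup of the own-TSS peaks of the 9 genes. It measured 1038 bp with a pileup of 8.26 (interval 7.4 to 9.19), a fold enrichment of 3.53 and a q-value of 0.0155. By pileup it ranked 10107 of the 10302 peaks at own TSSs of protein-coding genes. It met neither high-confidence limit, and it was lost when a q-value of at most 0.01 was required. The transcript Hhip-002, which starts 67.7 kb into the gene, had no peak at its TSS, and no other peak lay in the window.

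Smo (chr6:29685694-29711365, + strand, 25.7 kb) encodes Smoothened, the transducer of the signal, and had the highest pileup of the pathway genes. The peak at chr6:29685317-29686594 measured 1278 bp with a pileup of 28.33 (interval 26.9 to 29.8), a fold enrichment of 8.22 and a q-value of 1.60e-17. It ranked 25 by pileup and 157 by fold enrichment among the 10302 own-TSS peaks. Its length, with rank 3780, was not unusual, so the Smo peak was tall rather than wide. The remaining peaks of its window belonged to neighbours: one 40.9 kb upstream at the TSS of Tspan33, with a pileup of 15.98, and one 7.05 kb beyond the end of the gene at Ahcyl2, with a pileup of 17.39. No peak lay inside Smo away from the TSS.

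Sufu (chr19:46471386-46563294, + strand, 91.9 kb) encodes the inhibitor that holds GLI factors in the cytoplasm. Its peak, at chr19:46471462-46472071, measured 610 bp with a pileup of 19.06 (interval 17.4 to 20.9) and a fold enrichment of 4.87. It started 76 bp downstream of the first annotated TSS and covered those of Sufu-003 and Sufu-004. It was the only peak at a first TSS of the pathway genes that did not cover that TSS. A peak of 400 bp with a pileup of 20.44 ended 1178 bp upstream, at the TSS of Actr1a, so the first Sufu TSS lay in the gap between 2 peaks. With a promoter of 5000 bp upstream to 1000 bp downstream, both peaks counted as Sufu peaks.

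The Sufu window held the most peaks of the set, 6, of which 5 were flanking and none lay inside the gene away from its TSS. Per 100 kb of window Gli1 had more (3.58 against 3.13 at Sufu). The longest peak of all 25 lay in the Sufu window, 10.8 kb beyond the end of the gene at the TSS of Trim8. It had 4797 bp, a pileup of 18.86 and rank 76 by length. The other 3 were distal. One lay 47.6 kb upstream of Sufu and 5.95 kb from the microRNA gene Mir146b, with a pileup of 10.93, and 2 lay 29.6 and 34.5 kb beyond the gene, nearer to Trim8, with pileups of 9.47 and 10.12. None of these 3 met the high-confidence limits.

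Gli1 (chr10:126766945-126778645, - strand, 11.7 kb) encodes a GLI activator that is itself a target of the pathway. Its peak, at chr10:126776620-126778987, was wide and low. It measured 2368 bp, rank 764 by length, with a pileup of 11.14 (interval 10.5 to 11.8), rank 10336, and a fold enrichment of 3.77. With a q-value of 0.00193 it missed both high-confidence limits. Of the peak, 85.6% lay downstream of the first TSS, reaching 2025 bp into the gene, and it covered both annotated TSSs. Over 8414 genes whose first TSS lay in an own peak, the median share downstream was 61.3%. The other 3 peaks of the window lay at TSSs of neighbours: R3hdm2, 38.6 kb upstream of the Gli1 TSS, and Mars and the adjacent Mbd6 and Ddit3 (with the non-coding RP24-341K21.5 and RP24-341K21.6), 17.6 and 38.3 kb beyond the end of the gene. The surroundings are rich in peaks, and the 30 within 500 kb of the Gli1 TSS were a number that 96.8% of genes did not exceed.

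Gli2 (chr1:120730709-120950196, - strand, 219 kb) encodes the main GLI activator and had 5 peaks, all at or inside the gene. The peak at the first TSS, chr1:120949180-120950970, measured 1791 bp with a pileup of 15.16 (interval 14.3 to 16.1) and a fold enrichment of 3.66, below the limit of 4. A peak inside the gene was taller. At chr1:120944178-120944825, in intron 1 of Gli2-001 and 5.09 kb from the nearest own TSS, 648 bp had a pileup of 19.73 (interval 18 to 21.5) and a fold enrichment of 5.22. This peak ranked 77 by pileup and 181 by fold enrichment among the 2855 distal peaks. Its CpG ratio was 0.813, against a median of 0.335 over distal peaks and 0.689 at the peak of the first Gli2 TSS, and it held 6 GC boxes. The median pileup of distal peaks was 9.9.

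The other peaks inside Gli2 were lower. One in the same intron, at chr1:120930006-120931162, had a pileup of 12.24 (interval 11.2 to 13.3) and a fold enrichment of 5.57. Among distal peaks it ranked 118 by fold enrichment and 720 by pileup. Its CpG ratio was 0.181, with no GC box. One in intron 2 of Gli2-001, at chr1:120807294-120807773, lay 71.4 kb from the nearest own TSS, with a pileup of 7.79 (interval 6.58 to 9.15) and a fold enrichment of 4.25. Its q-value of 0.00212 missed the high-confidence limit, and its implied background of 1.07 fragments per base was near the lowest in the list. The fifth peak, at chr1:120878641-120879656, covered the TSS of Gli2-009, 71 kb into the gene, with a pileup of 11.2 (interval 10.2 to 12.3) and a fold enrichment of 3.23. Its CpG ratio was 0.195. The 2 peaks in intron 1 met the high-confidence limits, and neither of the Gli2 peaks at own TSSs did. The peak of the first TSS met the limit on the q-value (0.000336) and missed only that on fold enrichment. Its pileup of 15.16 was above the 12.24 of the lower intron 1 peak, but so was its implied background (3.41 against 1.38 fragments per base). The part of the shallow control in this split was not tested.

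Long genes have more room for such peaks. Of the 954 protein-coding genes of at least 200 kb, 23.3% had a distal peak inside the gene and 3.77% had 3 or more, as Gli2 did. Over all protein-coding genes these shares were 4.2% and 0.308%. A peak inside the gene away from own TSSs, which Gli2 and Ptch1 had, was found in 5.41% of all genes.

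Gli3 (chr13:15555068-15821859, + strand, 267 kb) encodes the main GLI repressor and is the longest of the pathway genes. Its TSS peak, at chr13:15554414-15556458, covered the TSSs of all 4 annotated transcripts. It measured 2045 bp with a pileup of 19.62 (interval 18.7 to 20.6) and a fold enrichment of 5.94, ranks 2466 and 1987 in the list. In contrast to Gli2, no peak lay elsewhere in the gene body. The other peak of the window lay 29 kb beyond the end of the gene, at chr13:15850819-15851536, 247 kb from the nearest annotated TSS. It had a pileup of 10.4 (interval 9.25 to 11.7) and a fold enrichment of 3.28, below the high-confidence limits. The next peak lay 832 kb from Gli3. Within 500 kb of its TSS there were 2 peaks, as at Shh.

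**Figure D2:**
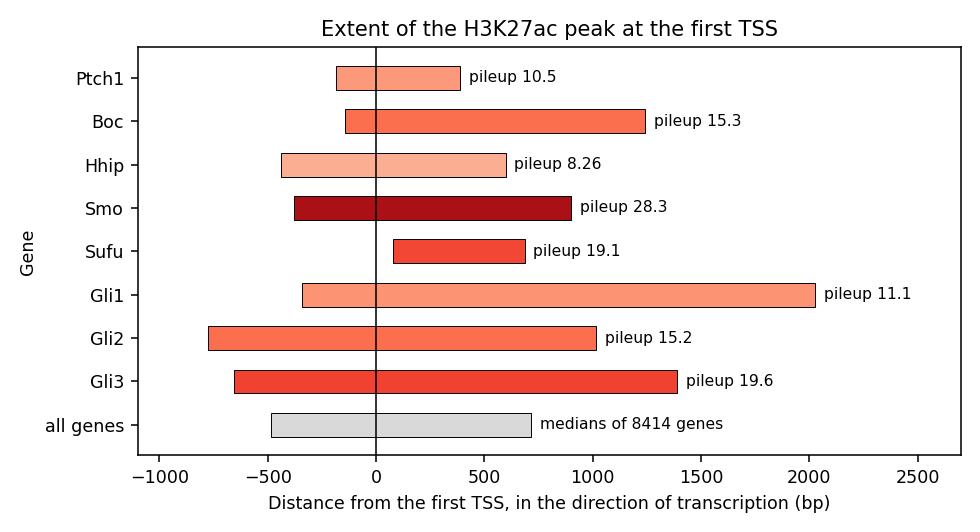
Extent of the peak at or next to the first TSS in bp, with positive distances in the direction of transcription, darker fill for higher pileup, and the mean pileup beside each bar. The grey bar gives the median extent before and after the first TSS over 8414 genes (486 and 717 bp). The Gli1 peak reached farthest into the gene (2025 bp) with a low pileup, and the Sufu peak started after the TSS.

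Over the 10 own-TSS peaks of the pathway genes, the median pileup was 15.2, against 16.3 over the 10302 own-TSS peaks of all protein-coding genes. The median fold enrichment was 4.47 against 4.71, and the median length 1332 against 1080 bp. High-confidence peaks were found at the TSSs of 5 of the 9 genes, Ptch1, Boc, Smo, Sufu and Gli3, and at those of 37.8% of all protein-coding genes. Counted by peak, 6 of the 10 met these limits, against 73.8% of own-TSS peaks in the list, and 14 of the 25 peaks of the windows did. These medians stand for peaks spread over the list, whose ranks by pileup ran from 27 (Smo) to 12524 (Hhip). A peak in the flanks was present at 4 of 9 genes, against 57.3% of all. A distal peak anywhere in the window was present at 4 of 9, Ptch1, Gli2, Gli3 and Sufu, against 17.8% of all. These 4 genes are 64.2 to 267 kb long, against a median of 15.4 kb over all protein-coding genes. The share was not taken over windows of like length. Of the 25 peaks, 8 were distal, against 21.2% of the list. These 8 had a median pileup of 10.3 against 9.9 for all distal peaks, and 2 of the 8 were high-confidence, against 30.1%.

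**Figure D3:**
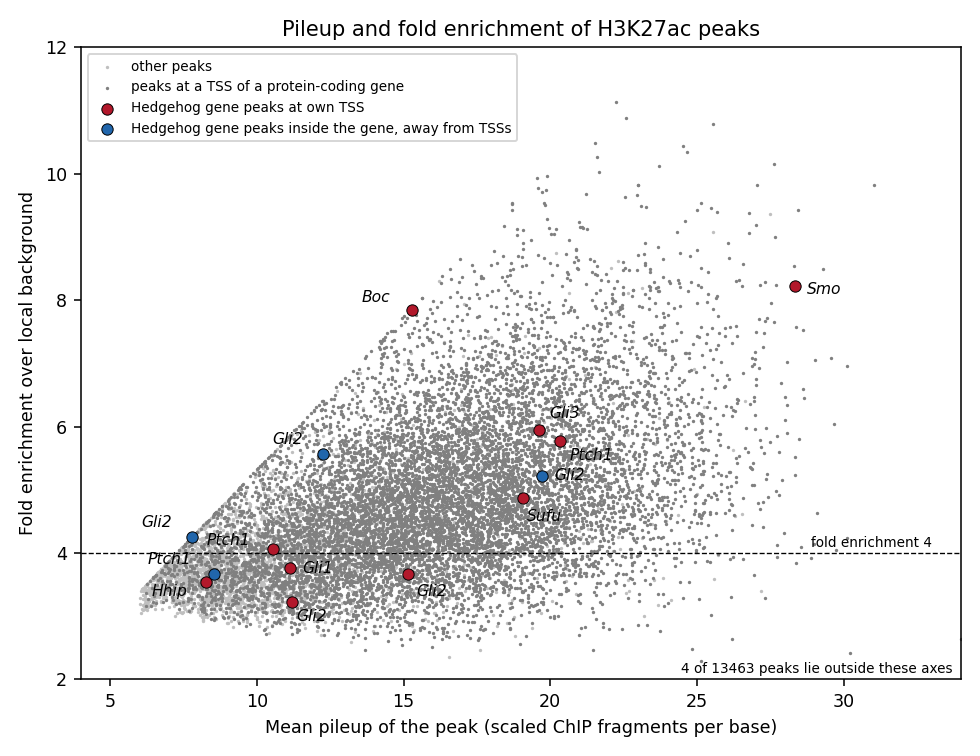
Mean pileup (scaled fragments per base) against fold enrichment over local background for the peaks of the list, with peaks of the 9 genes in red (at an own TSS) and blue (inside the gene away from own TSSs). The dashed line is a fold enrichment of 4. Smo stood at the right (28.33 and 8.22), Boc at the edge set by the lowest background (15.29 and 7.84), and Hhip at the lower left (8.26 and 3.53).

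Base composition at the TSS also varied between the pathway genes. In the 1 kb around the first TSS, Ptch1, Smo, Gli2, Gli3, Sufu and Boc had a GC content of at least 50% and a CpG ratio of at least 0.6, limits often used for CpG islands and applied after the list had been read. Of the 9882 genes with such a TSS, 87% had an own-TSS peak. Shh, Gli1 and Hhip fell below the CpG limit, with ratios of 0.553, 0.543 and 0.589. Of the 12485 genes below either limit, 20.4% had an own-TSS peak. Gli1 and Hhip were among these, and Shh was not. The CpG ratio was highest at Gli3 (0.934).

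Matches to the GLI consensus were searched because Ptch1, Gli1 and Hhip are targets of GLI factors in other tissues. A match is a description of letters and not a bound site. The exact letters TGGGTGGTC, on either strand, occurred 22 times in the 1756 kb of the 9 windows, or 1.25 times per 100 kb, against 0.666 per 100 kb over the genome. Ptch1 had 6 of them, 3.65 per 100 kb, and Gli2 had 6, 1.88 per 100 kb. Gli3, Sufu and Boc had 1 match each, or 0.273, 0.521 and 0.575 per 100 kb, below the genome rate. A count of 1 is too small for a rate to be read from it. None of the 22 lay inside any of the 25 peaks. Over the list, 1.08% of peaks held the exact letters. Around Ptch1, both words printed above lay just outside a peak, the upstream one 112 bp from the peak of the first TSS and the internal one 247 bp from the long internal peak. The 1 kb around the midpoint of the peak at the first TSS therefore held a match, as did 0.951% of such windows over all peaks.

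With 1 mismatch allowed, 6 of the 25 peaks held a near match, or 24%, against 24.8% of all peaks. The Gli1 peak stood out with 5, and the long Ptch1 peak had 3. At least 5 were held by 10 of the 13463 peaks, or 0.0743%, and by 2 of the 479 peaks whose length was within 10% of that of the Gli1 peak, itself included. This count was compared after it had been seen. The words of the long Ptch1 peak differ from the consensus by G3T, T1G and G4A, counted from 1 at the 5′ end of TGGGTGGTC with the consensus base first. The Hhip peak held none.

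The letters TAATTA, the core bound by many homeodomain factors, LHX2 among them, were absent from the 1 kb around the midpoint of all 25 peaks, against a share of 9.56% of such windows over the list and 18.7% over distal peaks. In whole peaks they occurred once, at the R3hdm2 TSS in the Gli1 window. Neither result bears on whether a factor is bound.

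The rest of the pathway was described with the same counts. Of 36 further genes listed, 35 were matched by symbol (Disp1 was not), and 28 of these, or 80%, had an own-TSS peak, with 23 high-confidence. Over all protein-coding genes the shares were 49.8% and 37.8%. The median pileup of the 28 was 15.3. By role, an own-TSS peak was present at 5 of 5 genes for ubiquitin ligase parts, 4 of 4 kinases, 4 of 4 receptors and co-receptors and 9 of 10 genes of the cilium and the relay from Smoothened to GLI factors. It was present at 2 of 4 genes for ligands and their release and at 4 of 8 targets known from retina or other tissues.

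The 3 highest were Cul1, a scaffold of ubiquitin ligases, with a pileup of 27.87 (interval 26.7 to 29), Fbxw11, a substrate adaptor for GLI processing, with 26.09 (interval 24.8 to 27.4), and Prkacb, a catalytic subunit of protein kinase A, with 21.06 (interval 19.9 to 22.2). None reached the 28.33 of Smo, although the intervals of Cul1 and Smo overlapped. Among the lowest was Scube2, which aids ligand release, with 10.23 (interval 8.76 to 11.9). Evc and Evc2, neighbours whose products bind Smoothened at the cilium, shared 1 peak with a pileup of 10.97 (interval 10.3 to 11.7).

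The 7 genes without an own-TSS peak included Dhh and Ihh, the other Hedgehog ligands of mammals, so that none of the 3 ligand genes had one. Ihh, like Shh, had no peak in its window, whereas Dhh had 3 flanking peaks. The others were Gpr161, a ciliary receptor that restrains the pathway, the cyclin gene Ccnd2, and Foxf1a, Nkx2-2 and Snai1, transcription factor genes known as targets in other tissues. Gpr161, Ccnd2 and Snai1 each had 1 distal peak in the window.

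**Figure D4:**
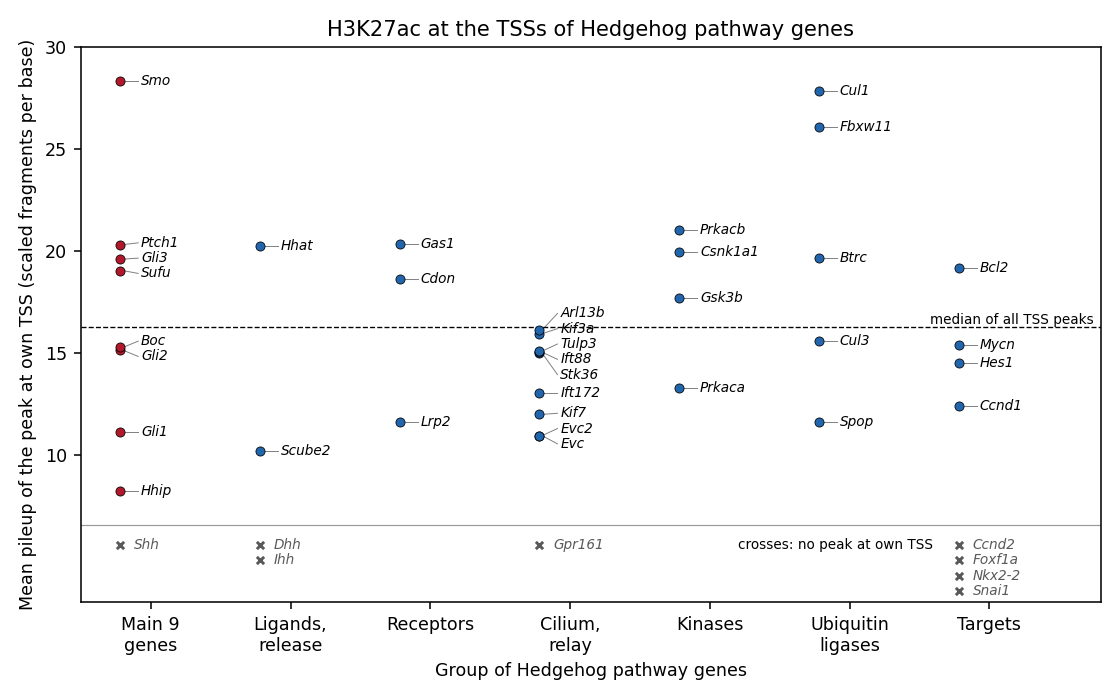
Mean pileup (scaled fragments per base) of the own-TSS peak, the highest where a gene had more than 1, for the 9 genes (red) and the further pathway genes by role (blue), of which 1 is not shown. The dashed line is the median over all own-TSS peaks, and crosses below the grey line are genes without a peak, which have no value. Smo and Cul1 had the highest pileups (28.33 and 27.87), and none of the ligand genes Shh, Dhh and Ihh had a peak at an own TSS.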

How the data were processed

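H3K27ac ChIP-Seq of E14 mouse retina was described from 1 peak list. Alignment by the authors used Bowtie2 and mm9, and reads mapping to more than 1 place were dropped. Both replicates were then merged for broad peak calling against 1 isotype control (MACS version 2.1.0.20140616, with a broad cutoff of 0.1). Per the file header, the ChIP signal was scaled down to the control, and the deposited pileup is its mean over each region. The fold enrichment values, as deposited, are ratios to local background, and the −log10 p and −log10 q values are those deposited by the authors. They were averaged over each region.

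Peaks were assigned to GENCODE vM1 genes on mm9 by an overlap of at least 1 bp. All peaks lay within the chromosomes of the reference. A peak at an own TSS overlapped the 1000 bp on either side of any annotated TSS of the gene, and otherwise it was inside the gene or flanking (50 kb). A distal peak was over 1 kb from every annotated TSS. The implied background was (pileup + 1) / fold enrichment - 1, with the MACS pseudocount of 1. Pileup intervals used the number of fragments implied by pileup, length, scaling and a fragment length of 313 bp. Tags without molecular identifiers are not independent molecules. Motifs were matched by letters.

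The members and lists were chosen with earlier results of these data known. All 9 genes, all genes with a TSS at a peak of their windows, and, from the further pathway genes, the 3 highest, 3 lowest and all without a peak were named. Genes outside the windows were named as the nearest peaks. The values of 1 of these genes and 1 sequence are not reported here. The other samples were not analysed here. The methods were tested on simulated data, where 200 of 200 planted genes received the right classes. These genes lay far apart with 1 TSS and at most 1 peak each, so several TSSs or close neighbours were not covered. Python 3.11.15, numpy 2.4.6, pandas 2.3.3, scipy 1.17.1 and matplotlib 3.10.9 were used.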

Additional observations from a re-analysis of the deposited data

How the results depend on the processing

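With high-confidence peaks alone, 5 genes in place of 8 had an own-TSS peak (Gli1, Gli2 and Hhip lost theirs), 1 in place of 2 had a peak inside the gene away from own TSSs (Gli2), and the windows held 14 peaks in place of 25, of which 2 in place of 8 were distal. With flanks of 20 kb, 4 distal peaks were left. The other 28 values of these counts, over stricter q-values, peak midpoints, merged peaks, other TSS regions, the first TSS alone and flanks of 20 or 100 kb, stayed within 1.5 times. Ranks of the 10 own-TSS peaks depended on the measure. Compared with the rank by pileup, 9 changed by over 1.5 times when taken by length, 7 by the product of pileup and length and 4 by fold enrichment. The number of peaks with a GLI match was 1 in 1 kb windows, 0 in whole peaks and 6 in whole peaks with 1 mismatch.

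No paired analysis was possible because the list is 1 pooled call without replicate values, and for the same reason no replicate was left out. The fragments behind a peak limit the precision of its pileup, and over the 25 peaks they numbered from about 122 to 3563. The control was shallow, with 9210563 tags, so a low local background, as at Boc and the distal Gli2 peak in intron 2, is coarse.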
